A study of Homo sapiens with 4 samples.

Results

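The genes described here are EP300, CREBBP, KAT2A, KAT2B, KAT5, KAT6A, KAT6B, KAT7 and KAT8, which encode histone acetyltransferases. The regions were taken from every line of the authors' deposited table whose assigned gene is one of these names. These lines held 46 of the 91107 distinct regions of the authors' deposited table, and each of the 9 genes, of 17301 gene names in all, had at least 1. The regions come from chromatin immunoprecipitation and sequencing of H3K27ac, histone H3 acetylated at lysine 27, in A375 cells, a long-established line from a human melanoma. Per the labels there were 2 libraries of cells treated with the vehicle isopropanol and 2 of cells treated with 1 mM octanoate, a medium-chain fatty acid. Treatment lasted 48 hours in each case, and cells of both groups were grown in the same serum-containing medium. Nothing in the labels says whether the 2 libraries of a group came from separate cultures, so the p-values may measure technical spread, and no inhibitor or loss of an acetyltransferase is among the groups.

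Histone acetyltransferases move the acetyl group of acetyl-CoA onto lysines of histone tails, and the marks they leave are read by bromodomain proteins and removed by deacetylases. The family falls into classes by catalytic domain. The paralogues p300 (EP300) and CBP (CREBBP) are transcriptional coactivators recruited by many sequence-specific factors and deposit most H3K27ac at enhancers and promoters. GCN5 (KAT2A) and PCAF (KAT2B) are alternative catalytic subunits of the SAGA and ATAC complexes and act mainly on lysine 9 of histone H3. The MYST class holds TIP60 (KAT5) of the NuA4 complex, MOZ (KAT6A) and MORF (KAT6B), which work with BRPF scaffolds, HBO1 (KAT7), linked to replication origins and histone H3 lysine 14, and MOF (KAT8), which acetylates lysine 16 of histone H4 in the MSL and NSL complexes. The data bear on the acetylation of chromatin beside these genes and not on the amount or activity of the enzymes.

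The stretches of DNA on which the start regions lie are shown for 6 of the genes, because the pairs of paralogues differ in them and because KAT5 and KAT7 carry motifs that the others lack. Each runs 5′ to 3′ from 250 bases before to 30 bases after a gene start, from RefSeq (GRCh38.p14), and in each case the deposited region at the gene's start covered the whole stretch. Capitals mark matches on either strand to GGGCGG (GC box), CCGGAAG (ETS factor site), TGACG (the short form of a cyclic AMP response element), and the E-box CACGTG. Matches to the CCAAT box and to the TATA box, searched as TATAAA, would be marked as well, and matches may overlap.
EP300: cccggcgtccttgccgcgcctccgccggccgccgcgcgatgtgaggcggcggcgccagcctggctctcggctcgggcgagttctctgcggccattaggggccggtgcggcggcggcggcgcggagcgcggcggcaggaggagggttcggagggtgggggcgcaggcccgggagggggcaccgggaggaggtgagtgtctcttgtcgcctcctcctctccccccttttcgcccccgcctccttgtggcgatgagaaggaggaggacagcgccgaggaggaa
CREBBP: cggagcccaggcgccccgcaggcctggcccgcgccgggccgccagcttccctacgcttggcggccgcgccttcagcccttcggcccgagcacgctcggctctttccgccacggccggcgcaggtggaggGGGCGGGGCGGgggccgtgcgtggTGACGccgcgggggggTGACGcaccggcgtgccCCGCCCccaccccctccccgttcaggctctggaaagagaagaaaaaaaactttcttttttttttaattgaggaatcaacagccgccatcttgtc
KAT2A: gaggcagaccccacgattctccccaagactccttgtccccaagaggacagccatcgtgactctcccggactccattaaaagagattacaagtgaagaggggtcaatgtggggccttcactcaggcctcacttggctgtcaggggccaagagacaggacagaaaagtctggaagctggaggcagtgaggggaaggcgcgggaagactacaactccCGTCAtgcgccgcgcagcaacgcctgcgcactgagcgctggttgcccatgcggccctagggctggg
KAT2B: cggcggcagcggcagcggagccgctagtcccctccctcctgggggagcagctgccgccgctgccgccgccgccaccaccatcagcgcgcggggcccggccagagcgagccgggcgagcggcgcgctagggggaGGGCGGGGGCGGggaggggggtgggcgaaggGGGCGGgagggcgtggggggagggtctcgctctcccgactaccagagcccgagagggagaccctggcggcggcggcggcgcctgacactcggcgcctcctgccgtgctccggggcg
KAT5: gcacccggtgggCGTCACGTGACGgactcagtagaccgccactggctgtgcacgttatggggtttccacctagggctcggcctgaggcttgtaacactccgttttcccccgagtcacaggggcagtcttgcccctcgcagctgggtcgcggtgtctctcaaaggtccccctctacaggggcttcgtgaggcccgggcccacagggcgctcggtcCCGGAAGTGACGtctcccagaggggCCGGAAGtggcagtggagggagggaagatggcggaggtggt
KAT7: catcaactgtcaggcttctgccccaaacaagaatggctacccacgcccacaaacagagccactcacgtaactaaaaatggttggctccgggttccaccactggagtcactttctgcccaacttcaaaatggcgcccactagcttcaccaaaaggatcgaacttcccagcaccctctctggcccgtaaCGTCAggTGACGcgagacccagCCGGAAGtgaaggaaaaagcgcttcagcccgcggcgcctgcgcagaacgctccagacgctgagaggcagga
The stretches lie at chr22:41092342-41092621 (plus strand), chr16:3880684-3880963 (minus), chr17:42121338-42121617 (minus), chr3:20040196-20040475 (plus), chr11:65712002-65712281 (plus) and chr17:49788431-49788710 (plus), in the same order.

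The RefSeq promoter table matched 7 of the 9 genes, these 6 and KAT6B, and held no entry for KAT6A and KAT8. It lists 2 stretches for CREBBP and 3 for KAT6B, of which the one nearest the outer end of the gene was used, and the stretches of KAT5 and KAT6B belong to a start further inside the gene than that end. CREBBP and KAT2B each had 3 GC boxes and EP300 and KAT2A had 0. Of the 7 stretches, 3 held a GC box, against 44.1% of the 35116 stretches of the same length in that table. KAT5 had 2 ETS sites and KAT7 had 1, so 2 of 7 held one against 9.94% of all stretches. The TGACG element was present in 4 of 7, namely CREBBP, KAT2A, KAT5 and KAT7, against 23.5% of all stretches. In KAT5 the 1 E-box, a motif found in 6.94% of all stretches, lay between TGACG elements that overlap it. The CCAAT box (33.6% of all stretches) and the TATA box (11.2%) were found in 0 of the 7. CpG dinucleotides numbered 38 in KAT2B, 37 in EP300, 32 in CREBBP, 27 in KAT6B, 20 in KAT5, 17 in KAT7 and 13 in KAT2A, where the median over all stretches was 13. The paralogues KAT2A and KAT2B were thus at the 2 ends of the range in CpG number. A match describes the letters and does not show that a factor binds.

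The authors' deposited table lists for each region a log2 fold change with its standard error (SE), p-values and a mean level, but nothing for single libraries, so depth and spread between libraries are unknown and each error below is the SE of the authors' fit. It does not name the numerator of the fold change, so changes are called positive or negative and not gains or losses under octanoate. It gives an adjusted p-value for 36436 regions, here called tested, and the value 1 for regions with a mean level of at most 18.4. Of the tested regions, 1.67% had an adjusted p-value under 0.05 and are called changed, and the median log2 fold change of all tested regions was 0.32 by the authors' deposited table. As a check of the cell type, 6 of 10 melanoma and melanocyte marker genes had a region at their start in the authors' deposited table, SOX10 with the highest level (774), while MLANA, TYR, DCT and TYRP1 had none there. A region at the start was also found for 3 of 5 epithelial genes (EPCAM, KRT8 and KRT18), 1 of 2 liver genes (APOA1, level 9.80) and 0 of 4 blood genes. KRT8 and KRT18 had the same level (261) and the same level per kb to the last digit, which points to a shared region counted for both. By these shares, which count KRT8 and KRT18 separately, the check does not tell the melanoma list from the epithelial one.

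Regions beside the acetyltransferase genes were unevenly spread. KAT6B had 14 and CREBBP 13, KAT2B had 6, EP300 and KAT6A had 3 each, KAT2A, KAT5 and KAT7 had 2 each, and KAT8 had 1. In the authors' deposited table, 8 of the 46 regions were at distance 0 from the assigned gene, 1 for each gene but KAT8, and 38 were elsewhere. The KAT8 region (chr16:31116426-31119579) was listed 672 bases from the gene in the authors' deposited table, yet it covered the RefSeq start of KAT8 and also overlapped the RefSeq gene BCKDK, a kinase of branched-chain amino acid breakdown. The start that the deposited distance implies for KAT8 lies 1910 bases before the RefSeq start, and for the other 8 genes the difference was between 1 and 972 bases. Set against RefSeq genes, 9 regions lay over the start, 25 within the gene, 10 upstream and 2 over the far end of the gene.

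**Figure D1:**
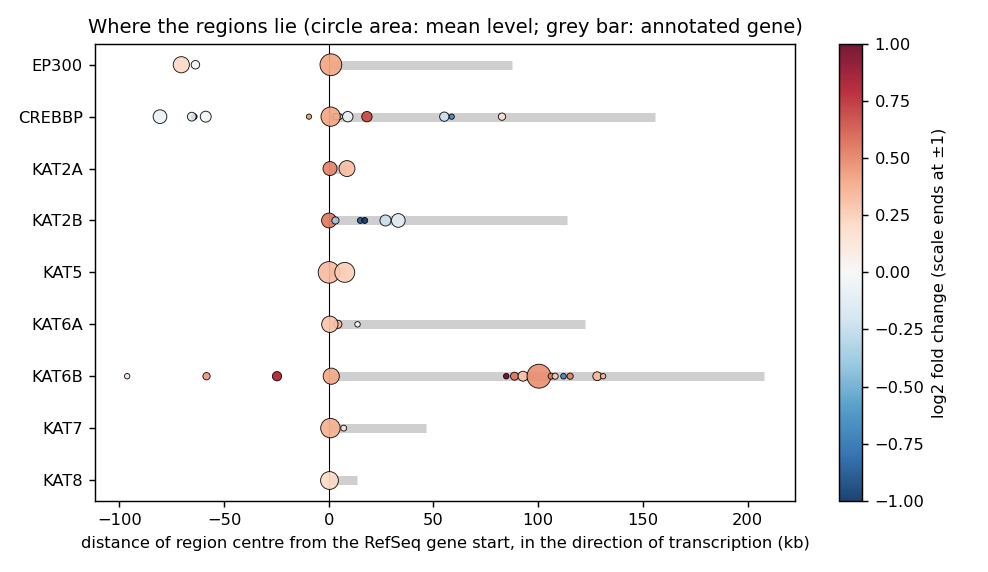
Position of the 46 regions, as distance of the region's centre from the RefSeq gene start in kb along the direction of transcription, 1 row per gene. Circle area gives the mean level, colour the log2 fold change from the authors' deposited table (scale ends at ±1), and grey bars the annotated genes. The regions of KAT6B gather in the middle of the gene and those of CREBBP lie on both sides of its start. EP300 has no region assigned to it within the gene beyond its start region.

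Genes of unlike length held unlike numbers of the regions assigned to them. A region inside one of these genes but assigned only to another gene was not counted. EP300 spans 87.5 kb (chr22:41092592-41180077), and beyond the start region 0 of its regions lay inside it, while its paralogue CREBBP spans 156 kb (chr16:3725054-3880713) and held 7 inside and 5 upstream. KAT2B (114 kb, chr3:20040446-20154404) held 5 inside, all nearer to its start than to its far end, and KAT2A (8.26 kb, chr17:42113111-42121367) held 0. KAT6B (208 kb, chr10:74824936-75032624) held 10 inside and 3 upstream, and its paralogue KAT6A (123 kb, chr8:41929479-42051987) held 2 inside. KAT7 (46.3 kb, chr17:49788681-49835026) held 1 inside, and KAT5 (7.59 kb, chr11:65712018-65719604) and KAT8 (13.7 kb, chr16:31117664-31131393) held 0.

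In the authors' deposited table, 4 of the 46 regions were also at the start of another gene. The start region of KAT7 was also that of FAM117A, and that of KAT2A also that of HSPB9. The KAT2A start region was further listed with CTD-2132N18.3, not at distance 0, and of RefSeq genes it overlapped KAT2A only. The second region of KAT2A, over the far end of the gene, was at the start of DHX58, which encodes an RNA sensor of the RIG-I family. The second region of KAT5, likewise over the far end, was at the start of RNASEH2C, a subunit of ribonuclease H2. From the authors' deposited table alone, the acetylation of these 4 regions cannot be assigned to a single gene.

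The first comparison asked whether H3K27ac at the acetyltransferase genes differed between octanoate and vehicle. Of the 46 regions, 22 were tested, and 0 of these had an adjusted p-value under 0.05 in the authors' deposited table (DESeq2 per the submitters' processing notes), where 1.67% of all tested regions did. At an unadjusted p-value under 0.05 there were 2 of 22, both beside KAT6B, where the authors' deposited table as a whole had 18.4%. With 22 regions at the rate of the whole table, 0 is near the background and is not a result about these genes. The largest p-value that was still called in the authors' deposited table was 0.000831, so at the SE of each region a log2 fold change of 0.75 (EP300 start region) to 1.33 (a CREBBP region) was needed for a call. Smaller changes could not have been called at these SEs, so the lack of a call does not mean that the regions did not change.

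All 8 regions at distance 0, and the KAT8 region with them, had positive log2 fold changes. Among the 9996 tested regions at distance 0 in the authors' deposited table, 98.1% were positive, so the common direction is that of nearly all gene starts. The median of the 8 was 0.40 with a range of 0.28 to 0.53, against a median of 0.35 for all tested regions at distance 0 in the authors' deposited table. The adjusted p-value was under 0.05 for 0 of the 8 and for 0.860% of tested regions at distance 0. For all 9 regions over a RefSeq start the 95% interval of the log2 fold change, from the authors' SE, included 0 and also included that median.

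**Figure D2:**
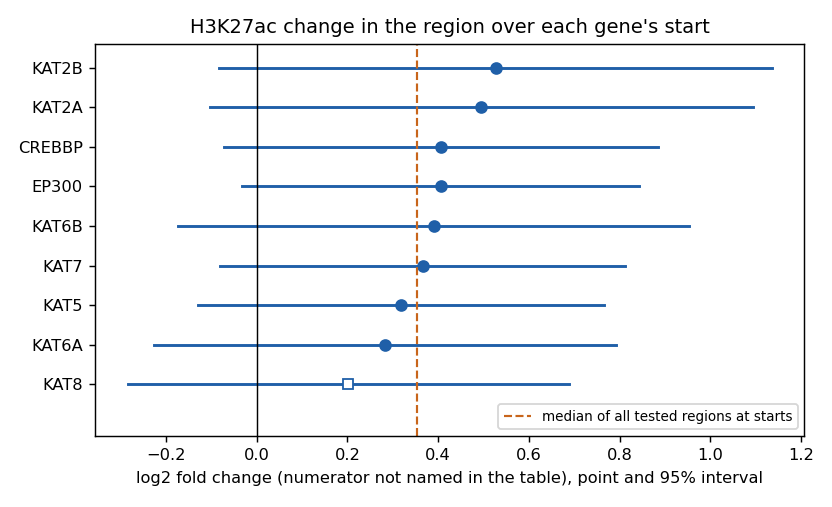
Log2 fold change from the authors' deposited table (x axis) of the region over the start of each gene, with its 95% interval from the authors' standard error. Filled circles are regions at distance 0, the open square is the KAT8 region, and the dashed line is the median of all tested regions at distance 0 (0.35). Points run from 0.20 (KAT8) to 0.53 (KAT2B), and every interval includes 0 and the dashed line.

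The paralogous coactivators had nearly the same value at their starts. The EP300 region (chr22:41090769-41096498) had a log2 fold change of 0.41 ± 0.22 (SE) by the authors' deposited table, a ratio of 1.32 (95% interval 0.979 to 1.79), with an adjusted p-value of 0.302. The CREBBP region (chr16:3877777-3881777) had 0.41 ± 0.24 in the authors' deposited table, a ratio of 1.33 (0.951 to 1.85), with an adjusted p-value of 0.34. EP300 and CREBBP each exceeded 61.2% of tested regions at distance 0.

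The GCN5 and PCAF genes had the 2 highest values of the family at starts. The KAT2B region (chr3:20039343-20041870) had a log2 fold change of 0.53 ± 0.31 (SE) by the authors' deposited table, a ratio of 1.44 (95% interval 0.945 to 2.20), with an adjusted p-value of 0.332. The KAT2A region (chr17:42119839-42121658) had 0.50 ± 0.31 in the authors' deposited table, a ratio of 1.41 (0.931 to 2.13), with an adjusted p-value of 0.349. They exceeded 80.5% and 76.4% of tested regions at distance 0, and had the largest SEs of the 9. Their intervals overlap those of the 7 others throughout, so the order within the family is not resolved.

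The MYST genes lay from the middle of the range downward. At the MORF gene the KAT6B region (chr10:74824577-74827735) had 0.39 ± 0.29 (SE) in the authors' deposited table, and at the HBO1 gene the KAT7 region (chr17:49787356-49791647) had 0.37 ± 0.23. The KAT5 region (chr11:65710344-65713963), at the TIP60 gene, had 0.32 ± 0.23 and the KAT6A region (chr8:42049555-42053335), at the MOZ gene, 0.28 ± 0.26 in the authors' deposited table. The KAT8 region, at the MOF gene, had the lowest value, 0.20 ± 0.25, in the authors' deposited table. Across these 5 regions the adjusted p-values ran from 0.352 (KAT7) to 0.613 (KAT8). After the median of all tested regions was subtracted, KAT5, KAT6A and KAT8 fell on the negative side, at -0.01, -0.04 and -0.12, and the other 6 stayed positive.

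Away from the starts the regions of the family had mixed signs. Of the 38 regions not at distance 0 from their acetyltransferase gene, the KAT8 region included, 21 had a positive log2 fold change by the authors' deposited table. The other 17 were negative, a share of 55.3% positive. Of all regions elsewhere, meaning at distance 0 from no gene, 70.5% were positive. The median of the 38 was 0.16, against 0.25 for all regions elsewhere. It was -0.16 after the median of all tested regions was subtracted. Among the 14 of the 38 that were tested, 8 were positive (57.1%) with a median of 0.20, against 83.2% and 0.31 for all tested regions elsewhere. The 38 and the 14 keep the KAT2A region at the DHX58 start and the KAT5 region at the RNASEH2C start, each positive. All regions elsewhere leave out such starts of other genes, so the sets are not quite alike. The adjusted p-value was under 0.05 for 0 of the 14 and for 1.97% of tested regions elsewhere. The regions of 1 gene lie in the same stretch of chromatin and are not independent, and these shares were not tested against the rest of the table. Without KAT6B the median of the other 25 regions was -0.04, and within 100 kb of the starts, a limit that drops 6 regions, all of KAT6B, it was 0.07.

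**Figure D3:**
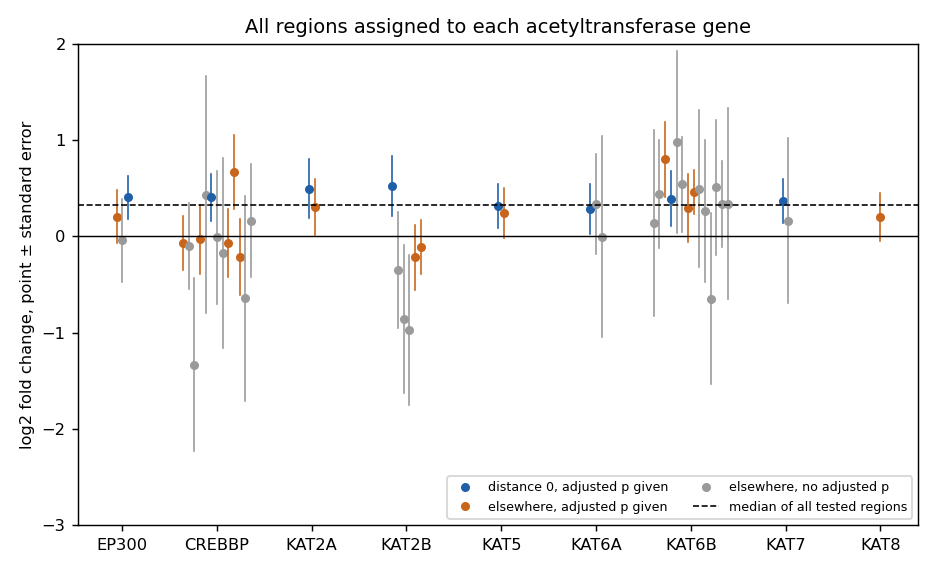
Log2 fold change from the authors' deposited table (y axis, point ± standard error) of all 46 regions by gene, ordered along each gene from upstream to downstream. Blue marks regions at distance 0, orange other tested regions and grey those not tested, and the dashed line is the median of all tested regions (0.32). All 5 regions of KAT2B other than its start are negative, 9 of 12 of CREBBP are negative, and 12 of 13 of KAT6B are positive. Of all regions elsewhere in the authors' deposited table, 70.5% are positive.

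KAT2B showed the widest split between its start and the rest of the gene. All 5 regions inside the gene had negative log2 fold changes by the authors' deposited table, from -0.98 to -0.11, while the start region had 0.53. The 2 that were tested were the KAT2B region 31733 bases from the start (chr3:20071756-20075620), with -0.11 ± 0.28 (SE; adjusted p-value 0.809), and the region at 26392 bases (chr3:20066415-20068714), with -0.22 ± 0.34 (0.693), both from the authors' deposited table. Their log2 fold changes exceeded 10.4% and 6.23% of tested regions elsewhere. The 3 others, at levels of 4.21 to 8.88, had values of -0.35 ± 0.60, -0.86 ± 0.77 and -0.98 ± 0.78 in the authors' deposited table. The 95% intervals of all 5 included 0 and overlapped that of the start region (-0.08 to 1.14).

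CREBBP had a like pattern with more regions. Of its 12 regions other than the start, 9 had negative and 3 positive log2 fold changes by the authors' deposited table, with a median of -0.07. The highest tested value was in a region within the CREBBP gene 17576 bases from its start (chr16:3861767-3863151), with 0.67 ± 0.38 (SE; adjusted p-value 0.32) by the authors' deposited table. The lowest tested value, at 54507 bases (chr16:3824821-3826220) within CREBBP, was -0.22 ± 0.40 with 0.738 in the authors' deposited table. The 2 differ in sign although both lie inside the gene, and their intervals (-0.08 to 1.42 and -0.997 to 0.562) overlap. The region of CREBBP with the highest level away from the start (46.9) lay 79588 bases upstream (chr16:3960315-3962238), inside the RefSeq gene ADCY9, an adenylyl cyclase gene, and had -0.07 ± 0.28 in the authors' deposited table. The most negative value of the family, -1.34 ± 0.90, came from a CREBBP region with a level of 3.22 that was not tested.

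Away from its start, KAT6B had mostly positive values, unlike KAT2B and CREBBP. Of its 13 regions other than the start, 12 had positive log2 fold changes by the authors' deposited table, with a median of 0.44. The 1 negative value (-0.65 ± 0.89, SE) came from a region at a level of 3.27. Of all regions elsewhere, 70.5% were positive, with a median of 0.25, so a positive sign is the common one. Some of the 12 turned negative once the median of all tested regions was subtracted. Only 3 of the 13 were tested, and the 95% intervals of the 10 others included 0. The highest level of the whole family, 154, belonged not to a start but to a region of 8530 bases inside the KAT6B gene, 95498 bases from its start (chr10:74921080-74929609). It was wider than 96.6% of tested regions elsewhere and had 0.46 ± 0.22 in the authors' deposited table, a ratio of 1.38 (95% interval 1.02 to 1.87), and its p-value was 0.0397 before adjustment and 0.25 after it. A KAT6B region 24451 bases upstream (chr10:74799387-74801131) had 0.80 ± 0.39 and p-values of 0.0402 before and 0.252 after adjustment in the authors' deposited table. Its level of 18.5 lay just above the limit of 18.4 below which no adjusted p-value was given. These 2 of the 14 tested regions elsewhere had a positive log2 fold change and an unadjusted p-value under 0.05, where 17.5% of all tested regions elsewhere in the authors' deposited table did. The third tested region of KAT6B away from the start, at 91150 bases (chr10:74916732-74918749), had 0.29 ± 0.36 in the authors' deposited table.

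The remaining genes had few regions away from their starts. Of the 2 upstream of EP300, the region at 68410 bases (chr22:41021042-41023376), which overlaps no RefSeq gene, had 0.20 ± 0.28 (SE) with an adjusted p-value of 0.647, and the region at 62214 bases had -0.04 ± 0.43, by the authors' deposited table. The KAT2A region at the DHX58 start (chr17:42111689-42113573) had 0.31 ± 0.29 and the KAT5 region at the RNASEH2C start (chr11:65718033-65721334) 0.24 ± 0.26 in the authors' deposited table. Inside KAT6A, the region at 3620 bases (chr8:42046846-42048368) had 0.34 ± 0.52 at a level of 13.2 by the authors' deposited table, and the other (level 2.86) had -0.0041 ± 1.05. The single region of KAT7 inside the gene had 0.16 ± 0.85 at a level of 4.28 in the authors' deposited table. For these 7 regions the 95% interval included 0.

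The levels were compared per kb of region, because the mean level grows with width. The 9 regions over RefSeq starts were 1820 (KAT2A) to 5730 bases (EP300) wide and had 18.2 (KAT6A) to 34.4 (KAT5) normalized units per kb in the authors' deposited table. Their median of 23.3 stood beside 25.8 for all tested regions at distance 0. EP300 had the widest region, wider than 82.8% of tested regions at distance 0, but at 22.1 units per kb exceeded 29.9% of them. KAT5 exceeded 84.7% and KAT6A 12.3% in level per kb. Away from starts, the highest levels per kb were those of the KAT2A and KAT5 regions that are starts of other genes (34.6 and 31.8), followed by the EP300 region 68410 bases upstream (28.9), in the authors' deposited table. The wide region inside KAT6B had 18.0 units per kb, so its high mean level goes with its width. The 24 regions that were not tested had a median width of 340 bases and a median SE of 0.78 in the authors' deposited table, against 2432 bases and 0.29 for the 22 tested.

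**Figure D4:**
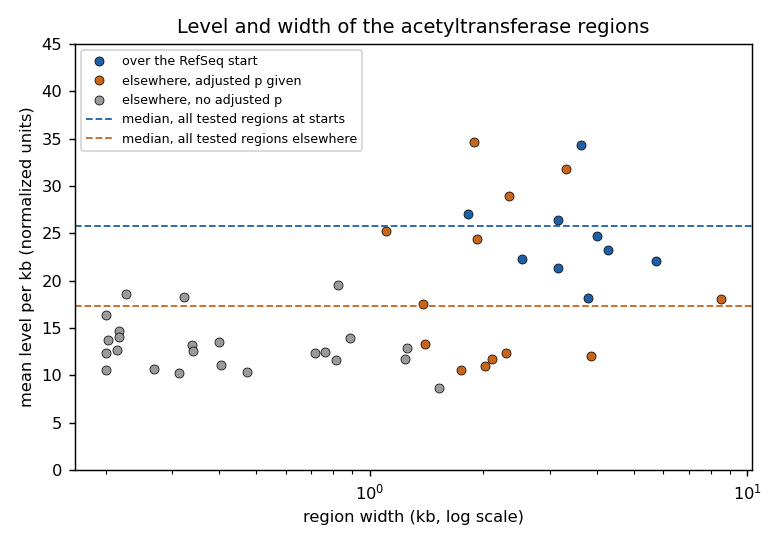
Mean level per kb (y axis, normalized units) against width (x axis, kb, log scale) of the 46 regions in the authors' deposited table. Blue marks the 9 regions over RefSeq starts, orange other tested regions and grey those not tested, and dashed lines are the medians of all tested regions at distance 0 (25.8) and elsewhere (17.3). The regions over starts lie between 18.2 and 34.4 units per kb, and the widest region, inside KAT6B, has 18.0.

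The acetyltransferases work in multi-subunit complexes, so regions beside 75 genes of partners and of other acetyltransferases were read in the same way. The lists overlap, since TRRAP, MEAF6 and WDR5 are each in 2 of them. Together they hold 164 distinct tested regions, of which 2 had a positive log2 fold change with an adjusted p-value under 0.05 and 0 a negative one in the authors' deposited table, near the 1.67% of all tested regions. By complex, tested regions with an adjusted p-value under 0.05 numbered 0 of 44 for SAGA and ATAC, 1 of 31 for NuA4, 0 of 20 for the BRPF and JADE scaffolds and their partners in MOZ, MORF and HBO1 complexes, 1 of 25 for MSL and NSL, and 0 of 48 for other acetyltransferases and p300 and CBP partners. The authors' deposited table gave median log2 fold changes of 0.25, 0.33, 0.40, 0.26 and 0.34 for the lists in the same order, against 0.32 for all tested regions. The call of the MSL and NSL list lay 108368 bases from PHF20 (chr20:35880351-35886140), which encodes an NSL subunit that reads methylated lysine, with 0.92 ± 0.20 (SE; adjusted p-value 0.00321) by the authors' deposited table. That of the NuA4 list lay 18745 bases from MRGBP (chr20:62775264-62777708), a subunit of NuA4, with 1.09 ± 0.31 (0.0367) in the authors' deposited table. Once the fold changes were centred on the median of all tested regions, which leaves 0.124% of them called, neither PHF20 (adjusted p-value 0.362) nor MRGBP (0.59) passed.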

How the data were processed

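The measurements are of H3K27ac by immunoprecipitation and sequencing in A375 cells. Per the submitters' processing notes, which give no roles or order, Trim Galore, cutadapt, FastQC, Bowtie2, Picard, MACS2, featureCounts, DESeq2 and bedtools 2.29.1 were used with build hg38. The deposited table holds 1 comparison. Per the file headers, its mean level is a normalized signal, its fold change and standard error are on the log2 scale, its statistic is a score equal to their ratio, and its p-values are unadjusted and adjusted. Adjusted values of 1 were read as not computed. The table holds no value per library, and 0 columns of single libraries were left out, so the tests planned on library values could not be run and depth is unknown.

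Lines repeating a region were merged. Region starts were raised by 1 base, since distances on both sides of a gene then imply 1 start. Intervals are 95% normal intervals from the authors' standard error. Centring subtracted the median of tested regions, with normal p-values and Benjamini-Hochberg adjustment, and was tried on simulated data. The changes planted there were larger than those of the regions described here, so the simulation does not show how centring performs at smaller changes. RefSeq GRCh38.p14 gave gene spans, older symbols (KAT14 was found as CSRP2BP) and sequences. Python 3.11.15, pandas 2.3.3, scipy 1.17.1 and matplotlib 3.10.9 were used. The regions named are, for each gene, those at distance 0 and, elsewhere, the highest level, the highest and lowest tested fold change and any unadjusted p-value under 0.05, with a few others chosen after their values were seen. The genes and lists were chosen with earlier results of these data known.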

Additional observations from a re-analysis of the deposited data

How the results depend on the processing

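No paired analysis was possible because only the finished comparison was at hand. Likewise, fits on library counts, other size factors, count filters and leaving out libraries were not run. The count of 0 calls beside the 9 genes was 0 in all 6 alternatives: an adjusted p-value under 0.01, a log2 fold change of at least 1, adjustment over all distinct regions, centring, all lines and a level of at least 10. Only adjustment over all distinct regions and centring could have added a call, so under the others 0 was fixed beforehand. The 2 calls beside complex subunits became 1 under each of the first 3 alternatives and 0 with centring. Under the first 2 alternatives their number could only stay or fall.

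Centring moved the median of the 8 start regions from 0.40 to 0.0746, reversed that of the 38 other regions to -0.16 and lowered the share of positive regions from 63.0% to 39.1%, since a common shift was subtracted. Leaving out 1 gene at a time gave medians of 0.39 to 0.41 at starts and of -0.0405 (without KAT6B) to 0.25 (without CREBBP) elsewhere. Within 100 kb of the start the median elsewhere was 0.07, and the 6 regions this limit drops all belong to KAT6B. Chosen after the data were seen, leaving out regions at the starts of other genes gave 0.40 at starts and 0.15 elsewhere, and using RefSeq starts gave 0.39 at starts.

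Of the 22 regions chosen by the naming rule, 20 were tested and 7 changed sign on centring: the start regions of KAT5 (-0.00528) and KAT6A (-0.0400), the KAT8 region (-0.12), and the regions beside EP300 at 68410 bases (-0.12), KAT2A at 7786 bases (-0.0173), KAT5 at 6037 bases (-0.0786) and KAT6B at 91150 bases (-0.0304). As deposited, 0 of the 22 passed, so a cut-off of 0.01 or a log2 fold change of at least 1 could not add any. Adjustment over all distinct regions, under which a pass was possible, gave 0 among the 22, and centring gave 0 among the 20 tested.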
